A study of Mus musculus with 2 samples.

Results

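Proteasome genes were taken as the protein-coding genes of the mouse RefSeq annotation of GRCm38, the assembly known as mm10, whose symbol begins with Psma, Psmb, Psmc, Psmd, Psme, Psmf or Psmg. There were 51 such genes among 21887 protein-coding genes. The data were 1 Myc-Tag ChIP library and 1 input library of an Lck-Dlx5 T-cell lymphoma, from mice in which the Lck promoter, active in thymocytes, drives a Dlx5 transgene that carries the Myc-Tag recognized by the antibody. The labels give both libraries as a primary tumor, with the strain C57BL/6 for the ChIP and C57BL/7 for the input, whereas the study's methods describe a lymphoma cell line and an IgG control, and age is not given in the sources used here. Neither library had a replicate, and both carry the transgene, so that chromatin without the tagged protein was not compared. The deposited values are interval borders, summit positions and summit heights, and the height is a score whose normalization and depth are not stated.

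The Myc-Tag library held 3477 intervals with a median summit height of 16 (interquartile range 13 to 19), and 28 of them were also called in the input. Called in the input means that an input interval had identical borders, and all 28 input intervals matched in this way. As to the genome build, the submitters' processing notes name mm9 and the study's browser view of these tracks shows mm10, and 58.4% of the summits lay within 1 kb of a protein-coding gene end of mm10. Among genes known as markers of T cells, 4 of 12 had a summit within 1 kb of a gene end (Cd3d, Cd3g, Cd8b1 and Rag2). So did 0 of 10 markers of other lineages, which allows a share of up to 30.0%, and 10.8% of all protein-coding genes. The T-cell gene Lck was not counted by this rule, although a summit lay within 1 kb upstream of its start in the RefSeq promoter table. Intervals are calls of recovered DNA and give no expression level.

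The proteasome is the protease that degrades proteins tagged with ubiquitin. Its core particle is a barrel of alpha rings, which gate the entrance, and beta rings, which hold the catalytic sites, and the regulatory particle on top of it binds, unfolds and feeds in the substrates. In cells exposed to interferon the standard catalytic subunits are replaced by the immunoproteasome subunits, which favors the production of peptides for class I antigen presentation, and cortical epithelial cells of the thymus use a further variant, the thymoproteasome. Assembly chaperones bind the intermediates and leave the finished complex, while separate activators and an inhibitor bind the ends of the core.

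The promoters on which the results turn are shown here as the 250 bases upstream of the annotated start, 5′ to 3′ along the gene's strand, from RefSeq on GRCm38.p6. The first 4 genes are among the 7 with a Myc-Tag summit and no other protein-coding gene end within 1 kb of it, and Psmb5 and Psmb8, the standard and the immunoproteasome form of the same catalytic subunit, had none. Capitals mark every match, on either strand, to TAATT, the core motif of the Dlx family, to CCAAT, the box bound by NF-Y, to CCGGAAG, an Ets site, or to TGACNNNGC, the antioxidant response element bound by Nrf factors.
Psmg3 (chr5:139826895-139827144, minus strand): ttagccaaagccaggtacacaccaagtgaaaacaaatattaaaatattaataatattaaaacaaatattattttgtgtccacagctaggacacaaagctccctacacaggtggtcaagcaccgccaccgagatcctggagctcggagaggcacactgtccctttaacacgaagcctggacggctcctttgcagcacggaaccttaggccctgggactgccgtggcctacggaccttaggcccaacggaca
Psmd12 (chr11:107479278-107479527, plus strand): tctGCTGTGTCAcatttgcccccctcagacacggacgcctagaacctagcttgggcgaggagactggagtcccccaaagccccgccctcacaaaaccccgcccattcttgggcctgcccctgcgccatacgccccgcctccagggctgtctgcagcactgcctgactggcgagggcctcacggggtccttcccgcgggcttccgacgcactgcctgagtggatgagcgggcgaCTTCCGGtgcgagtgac
Psmd1 (chr1:86064369-86064618, plus strand): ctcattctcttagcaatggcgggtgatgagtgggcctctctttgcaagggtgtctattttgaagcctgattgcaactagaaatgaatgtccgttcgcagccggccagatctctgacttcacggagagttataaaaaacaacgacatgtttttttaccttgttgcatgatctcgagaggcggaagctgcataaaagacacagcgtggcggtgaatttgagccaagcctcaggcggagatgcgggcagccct
Psmd9 (chr5:123227940-123228189, plus strand): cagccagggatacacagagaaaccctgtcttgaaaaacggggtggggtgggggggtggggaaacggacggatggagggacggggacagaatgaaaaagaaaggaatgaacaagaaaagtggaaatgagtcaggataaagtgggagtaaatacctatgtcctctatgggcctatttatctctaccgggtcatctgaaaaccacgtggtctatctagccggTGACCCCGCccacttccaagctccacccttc
Psmb5 (chr14:54617996-54618245, minus strand): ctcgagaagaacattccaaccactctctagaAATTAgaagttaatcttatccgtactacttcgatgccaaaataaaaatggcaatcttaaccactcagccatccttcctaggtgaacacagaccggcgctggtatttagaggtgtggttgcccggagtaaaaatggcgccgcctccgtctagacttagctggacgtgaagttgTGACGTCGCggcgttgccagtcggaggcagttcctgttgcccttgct
Psmb8 (chr17:34197945-34198194, plus strand): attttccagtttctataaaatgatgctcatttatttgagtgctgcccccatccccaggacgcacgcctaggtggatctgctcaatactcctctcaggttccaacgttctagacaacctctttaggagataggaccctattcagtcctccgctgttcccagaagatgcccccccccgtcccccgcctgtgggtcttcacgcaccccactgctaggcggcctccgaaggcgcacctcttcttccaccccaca

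To determine which proteasome genes carried Myc-Tag intervals, each gene was scored by whether a summit lay within 1 kb of either annotated end. By this rule 11 of the 51 proteasome genes (21.6%, 95% Wilson interval 12.5 to 34.6%) had an interval, against 2354 of all 21887 protein-coding genes (10.8%). The intervals of shares cover counting error only, the genes are not replicates of a condition, and with 1 library no test between conditions was possible. Each of the 11 genes had a single summit within 1 kb, and 0 of these 11 intervals were called in the input. Input calls were rare at genes in general, with 5 of the 2030 Myc-Tag intervals at protein-coding gene ends. As all 28 input intervals shared the borders of a Myc-Tag interval, the input calls may not be an independent check. Where no interval is listed, recovery below the authors' calling threshold was not detectable.

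The genes with an interval encode subunits of the core and of the regulatory particle and assembly chaperones. Of the 15 core subunits outside the immunoproteasome and thymoproteasome, 2 had an interval (13.3%, 95% Wilson interval 3.74 to 37.9%), the alpha subunit gene Psma7 (1 of 8 alpha genes) and the beta subunit gene Psmb3 (1 of 7 beta genes). Of the 17 subunits of the regulatory particle, 5 had one (29.4%, 13.3 to 53.1%). These were the ATPase genes Psmc2 and Psmc3 (2 of 6) and the non-ATPase genes Psmd1, Psmd3 and Psmd12 (3 of 11). Of the 7 assembly chaperones, 4 had one (57.1%, 25.0 to 84.2%), namely Psmd5 and Psmd9 of the regulatory particle (2 of 3) and Psmg2 and Psmg3 of the core (2 of 4). None of the 4 immunoproteasome and thymoproteasome genes (Psmb8, Psmb9, Psmb10 and Psmb11) had an interval, which at a limit of 3 counts allows a share of up to 75.0%, and with Psme1 and Psme2, the interferon-inducible activator subunits, the count was 0 of 6. The 6 genes of the activators and of the inhibitor Psmf1 had none by this rule either. Psmc3ip and Psme3ip1, which match by symbol but encode no proteasome subunit, had no interval. The Wilson intervals of the core, regulatory and chaperone groups overlap, and differences between these shares were not tested.

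**Figure D1:**
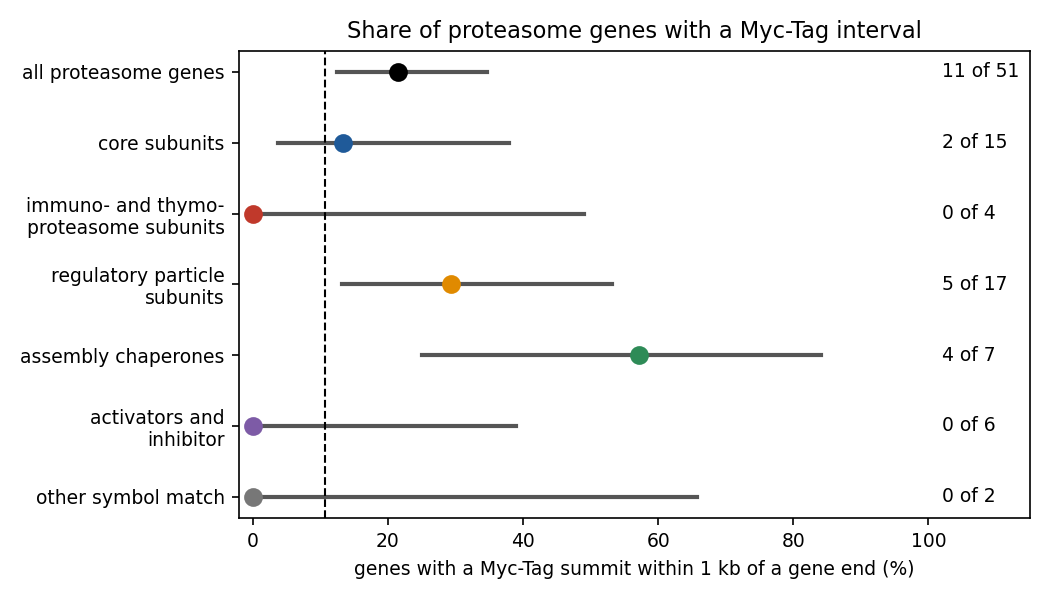
Share of proteasome genes with a Myc-Tag summit within 1 kb of a gene end, in percent, for all members and by role, as points with 95% Wilson intervals (bars), the 10.8% of all protein-coding genes (dashed line) and the counts at the right. Assembly chaperones lie highest with 4 of 7, and the immunoproteasome group and the activators and inhibitor lie at 0.

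The summits at the assembly chaperone genes included the tallest of the family. Psmg2, which encodes a chaperone that starts the assembly of the alpha ring, had a summit height of 31 in the interval from 67640848 to 67641821 of chromosome 18, and 3.68% of all Myc-Tag summits were taller. This summit lay 147 bp outside Psmg2 but 85 bp from an end of the neighboring gene Cep76, which encodes a centrosomal protein, so the interval cannot be assigned to either. Psmg3, a core chaperone that works at an early step of ring assembly, had a height of 27 in the interval from 139826504 to 139827254 of chromosome 5, with the summit 18 bp upstream of the start. Here no other protein-coding gene lay nearer than 6943 bp. Psmd9, a chaperone of the ATPase ring, had a height of 21 (chromosome 5, 123228020 to 123228601), with the summit inside the gene and 130 bp from the start. Psmd5, another ATPase chaperone, was much lower with a height of 12 (chromosome 2, 34870729 to 34871550) and a summit 174 bp upstream of the start, and 81.4% of all summits were taller. The chaperone genes thus spanned the whole range of heights seen in the family, 12 to 31. The other three, Psmg1, Psmg4 and Psmd10 (gankyrin), had their nearest summits at 91.4, 48.3 and 405 kb.

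Among the regulatory particle genes, Psmd12, a lid subunit, had the tallest summit, with a height of 24 in the interval from 107479107 to 107479927 of chromosome 11. The summit was 40 bp upstream of the start, within the sequence shown above, and 9.49% of all summits were taller. Psmd3, also a lid subunit, had a height of 20 (chromosome 11, 98682228 to 98682925), with the summit 58 bp outside the end with the lower coordinate. Psmd1, the large scaffold subunit of the base, had a height of 17 (chromosome 1, 86064056 to 86064954), with the summit 11 bp upstream of the start. All 3 had no other protein-coding gene end within 1 kb. The ATPase genes were lower. Psmc3 had a height of 13 (chromosome 2, 91053836 to 91054574) with the summit 160 bp inside the gene. Psmc2 had 2 intervals, with summits on either side of its first annotated start. One, from 21784758 to 21785322 of chromosome 5, had a height of 12 and lay 267 bp upstream of Psmc2 and 256 bp from Dnajc2, a chaperone gene. The other, from 21786570 to 21786977, had the same height and a summit inside the gene, 69 bp downstream of a second annotated start.

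The 12 regulatory particle genes without an interval were Psmc1, Psmc4, Psmc5, Psmc6, Psmd2, Psmd4, Psmd6, Psmd7, Psmd8, Psmd11, Psmd13 and Psmd14. Their nearest summits lay 3.57 to 1473 kb away, with a median of 101 kb. Psmd11 and Psmc5 were the nearest, at 3568 and 9592 bp. Psmd14, the deubiquitinase of the lid, and Psmd4, a ubiquitin receptor, were 831 and 68.4 kb away.

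Both core subunit genes with an interval had a neighboring gene closer to the summit. Psma7 had a height of 14 (chromosome 2, 180042059 to 180043058), 160 bp upstream of its start and 141 bp from the neighboring gene Ss18l1. At Psmb3 the height was 17 (chromosome 11, 97702298 to 97702830), but the summit lay 874 bp upstream, the longest distance among the 11, and 126 bp from Pcgf2, which encodes a Polycomb protein. This interval did not reach the Psmb3 gene. Psmb3 was the member just inside the limit of 1 kb, and the member just outside was Psmf1 at 2919 bp. The 13 core genes without an interval had their nearest summits between 20.2 kb (Psma3) and 573 kb (Psma2), and none lay within 10 kb. They included the standard catalytic subunits Psmb5, Psmb6 and Psmb7, at 23.7, 236 and 178 kb, and Psma8, an alpha subunit of the testis, at 23.2 kb.

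At the immunoproteasome genes no summit was close. For the neighbors Psmb8 and Psmb9, in the class II region of the major histocompatibility complex on chromosome 17, the nearest summit was the same, 75.6 and 59.5 kb away. Psmb10 on chromosome 8 was 35.1 kb from a summit. Psmb11, the thymoproteasome subunit, was 12.1 kb from a summit that was also the nearest to Psmb5. Psme1 and Psme2 had theirs at 18.4 and 27.4 kb. Psme2b, Psme3 and Psme4, the remaining activator genes, were 88.4, 119 and 1078 kb from a summit.

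**Figure D2:**
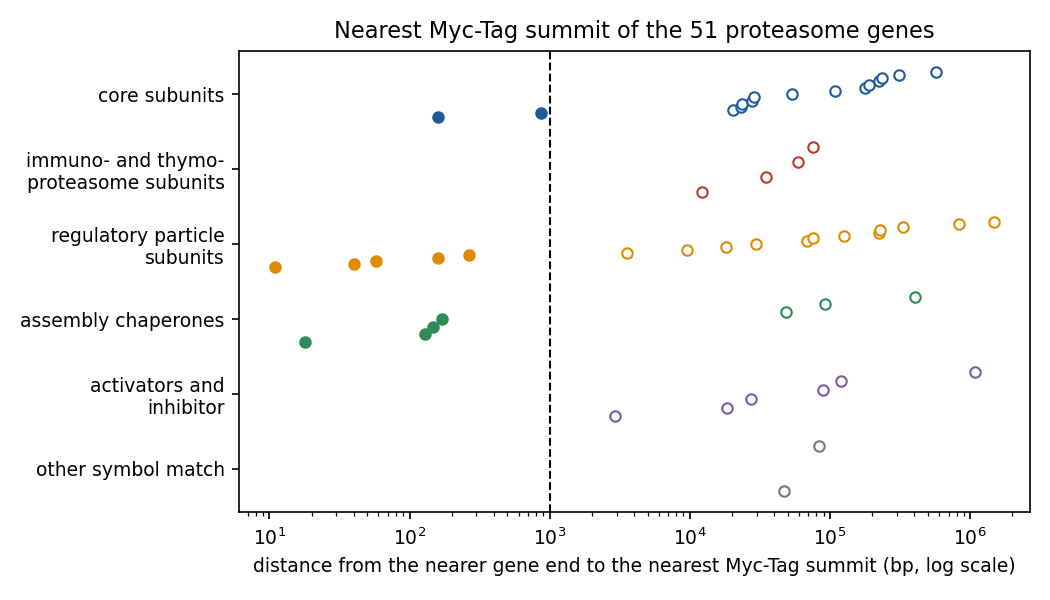
Distance from the nearer gene end to the nearest Myc-Tag summit, in bp on a log scale, for the 51 proteasome genes by role, filled within the 1 kb of the rule (dashed line) and open beyond it. Between Psmb3 at 874 bp and Psmf1 at 2919 bp there was no member, and all 4 immunoproteasome and thymoproteasome genes lie beyond 10 kb.

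Psmf1, the proteasome inhibitor, had an interval that the rule did not count. It spans 151740821 to 151741640 of chromosome 2, has a height of 17, and its summit lay inside the gene, 30 bp downstream of the start given for Psmf1 in the RefSeq promoter table. The annotated end of the gene lies 2919 bp beyond the summit, as the extent of Psmf1 in the gene table reaches past this start. With starts from that table in place of gene ends, 9 of the 43 proteasome genes with an entry (20.9%, 95% Wilson interval 11.4 to 35.2%) had a summit within 1 kb, against 11.4% of the 17492 protein-coding genes with one.

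The median height at proteasome genes was close to that of the library as a whole. Over the 11 genes the heights ranged from 12 to 31 with a median of 17. The median was 16 over all intervals and 16 over the 2030 intervals at protein-coding gene ends. Of the 11, 7 were above the overall median and 4 below it. At or above that median were 1739 of all 3477 intervals and 1023 of the 2030. The upper quartile of 19 was reached by 5 of the 11, by 975 of the 3477 and by 555 of the 2030. The only height above the 95th percentile of 29 was that of Psmg2. The widths ranged from 533 bp (Psmb3) to 1000 bp (Psma7) with a median of 751 bp, while intervals at protein-coding gene ends had a median of 811 bp. A difference in height between genes has no replicate check here.

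**Figure D3:**
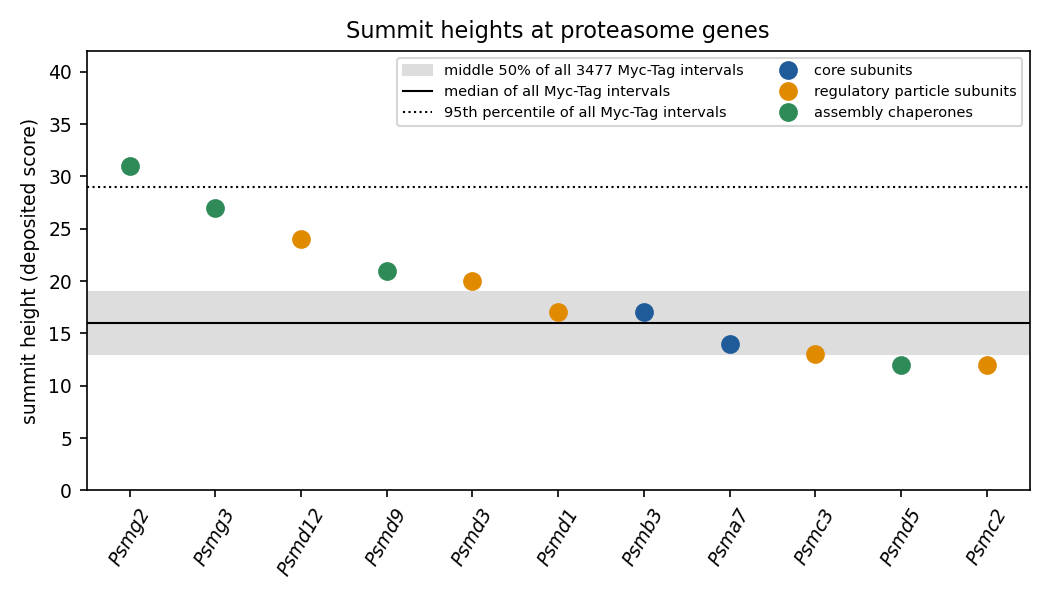
Deposited summit height (a score without stated normalization) of the interval at each of the 11 proteasome genes, in descending order and colored by role, over the middle 50% (gray band, 13 to 19), the median (line, 16) and the 95th percentile (dotted line, 29) of all 3477 Myc-Tag intervals. Psmg2 at 31 lies above the dotted line and the 2 core subunits lie within the band.

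With respect to position, 9 of the 11 summits lay within 200 bp of a gene end, 9 were outside and 2 inside the gene, and 10 of the 11 intervals covered the annotated end itself. The exception was Psmb3. The same counts over all protein-coding genes with an interval are not given here, so no trait particular to proteasome genes is read from them. The rule limits the distance from summit to gene end to 1 kb. Its median was 147 bp at the 11 proteasome genes and 182 bp over all 2354 protein-coding genes with an interval. The strand was known for 8 of the 11 genes, and in all 8 the nearest end was the transcription start, as it was for 94.0% of the 1900 protein-coding genes with an interval and a known strand. Relative to the start, the summits of the 9 genes, Psmf1 included, ran from 874 bp upstream to 130 bp downstream with a median of 18 bp upstream (all protein-coding genes with a summit at their start had a median of 11 bp downstream). For Psmc2 the interval inside the gene is the one counted here. The share within 200 bp of the start was 8 of 9 (88.9%) for proteasome genes and 61.1% for all protein-coding genes with a summit at their start. All 11 summits at proteasome genes were on multiples of 16 bp, so positions are no finer than that step.

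**Figure D4:**
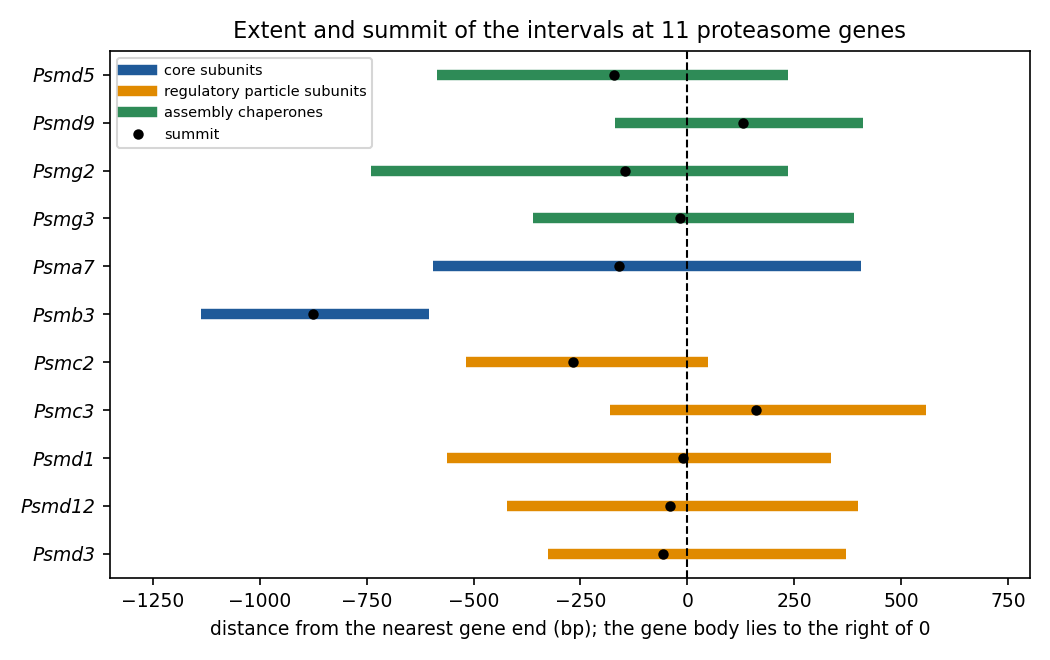
Extent (bars) and summit (black points) of the Myc-Tag interval at each of the 11 proteasome genes, in bp from the nearest annotated gene end, with the gene body to the right of 0. All intervals but that of Psmb3 cross the gene end, and only the summits of Psmd9 and Psmc3 lie inside the gene.

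**Figure D5:**
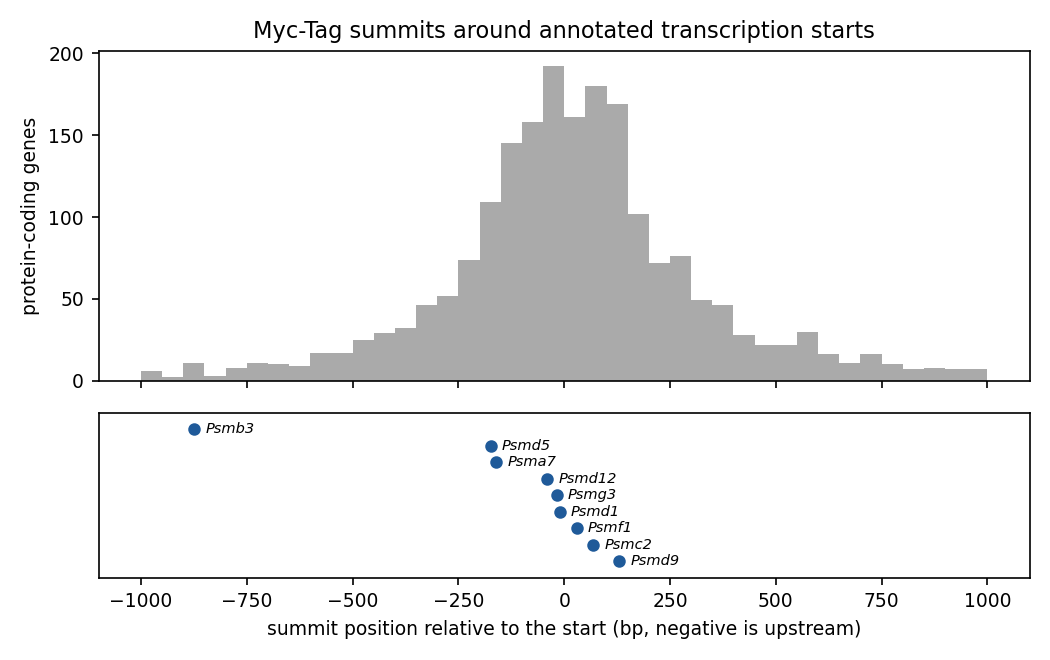
Position of the Myc-Tag summit relative to the annotated transcription start, in bp along the gene's strand with upstream negative, as a histogram over all protein-coding genes with a summit within 1 kb of a start (top) and as points for the 9 proteasome genes among them (bottom). The proteasome summits lie between 174 bp upstream and 130 bp downstream, except that of Psmb3.

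Several of these intervals lie between close neighbors. At 4 of the 11 genes (Psmg2, Psma7, Psmc2 and Psmb3, 36.4%) another protein-coding gene end was within 1 kb of the summit, and at Psmg2, Psma7 and Psmb3 the summit was nearer to that neighbor than to the proteasome gene, while at Psmc2 the distances differed by less than the step of 16 bp. Among all 2354 protein-coding genes with an interval the share with a second gene end within 1 kb was 32.9%. The other 7 genes (Psmg3, Psmd5, Psmd9, Psmc3, Psmd1, Psmd12 and Psmd3) had no such neighbor. Both core subunits with an interval were among the shared cases, and the 3 non-ATPase subunits of the regulatory particle were not.

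The promoter windows of the family, 250 bases before to 50 after the start, were available for 43 genes in 47 windows. TAATT on either strand was held by 0 of the 10 windows with a summit within 1 kb of their start and by 7 of the 37 others (18.9%), against 23.5% of all 21263 windows of protein-coding genes and 14.0% of the 2318 of these with a summit. The windows with TAATT were those of Psma2, Psmb5, Psmb6, Psmd2, Psmd4, Psmd11 and Psme3ip1. CCGGAAG was held by 36.2% of proteasome windows, 4 of 10 with a summit and 13 of 37 without, while 11.6% of all windows and 24.2% of those with a summit held it. TGACNNNGC was held by 2 of the 10 windows (Psmd9 and Psmd12, shown above) and by 4 of the 37 (Psmb5, Psmb6, Psmc6 and Psme4). Over all protein-coding genes, 13.0% of all windows and 15.4% of those with a summit held it. CCAAT was held by 34.0% of proteasome windows, 3 of 10 with a summit and 13 of 37 without. The shares were 38.2% of all windows and 37.1% of those with a summit. Matches are letters in these windows, not binding sites, and the rest of each interval was not searched. The 10 windows with a summit belong to 9 genes, and at Psmb3, Psmc2 and Psmd9 the summits lay outside the window. For 0 of 10 windows with TAATT, the limit of 3 counts allows a share of up to 30.0%. The median number of CpG dinucleotides was 19.5 in proteasome windows with a summit and 19 in those without, whereas over all protein-coding genes it was 25 with a summit and 13 in all windows. The GC content had a median of 55.7% in the 10 windows and 59.0% in the 37, while over all protein-coding genes it was 63.0% with a summit and 56.3% in all windows.

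Genes that work with the proteasome were examined from 2 lists, which were chosen with earlier results of these data known. Of 24 ubiquitin and proteasome partner genes, 9 had a summit within 1 kb of a gene end (37.5%, 95% Wilson interval 21.2 to 57.3%), against 10.8% of all protein-coding genes. They included the polyubiquitin gene Ubb, with a height of 17, and Rps27a, which encodes ubiquitin fused to a ribosomal protein, with a height of 21. They also included the deubiquitinases of the regulatory particle Usp14 (18) and Uchl5 (20) and the shuttle factors Rad23b (16) and Ubqln1 (20), which bring substrates to the proteasome. Those without an interval included Nfe2l1, the transcription factor that drives proteasome genes when the protease is inhibited, the assembly factor Pomp and the ubiquitin receptor Adrm1. Of 11 genes of class I antigen processing, 4 had an interval (36.4%, 15.2 to 64.6%, against the same 10.8%), among them the peptide loading gene Tapbp (14) and the chaperone genes Canx (19) and Pdia3 (16). The summits at Uchl5, Pdia3 and Tapbp also lay within 1 kb of another protein-coding gene end, and that at Tapbp was at the end of the gene, 10210 bp from its start. Tap1 and Tap2, the peptide transporter genes next to Psmb8 and Psmb9, had none. None of these 13 intervals was called in the input.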

How the data were processed

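The data are from 1 Myc-Tag ChIP library and 1 input library, sequenced by a service provider (Active Motif) on the Illumina GA II platform. The authors' intervals came from the peak caller MACS. The submitters' processing notes name BWA and mm9. The calling threshold and the read extension are not given in the sources used here. The authors deposited 5 tracks in 1 table, and the only values in it are the summit heights, a score given as whole numbers, so the depth per library is unknown. The active region track was not used.

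Summits were joined to the interval that holds them, and intervals are printed with starts counted from 1. Gene coordinates, transcription starts and promoter sequences were from RefSeq tables of GRCm38.p6. Of the 51 members, 43 matched the promoter table, which also gives the strand. Every member was accounted for. Of the symbols in the partner list, 2 had no entry of their own, 1 of them an older name of Sem1, and some genes of the lists are not reported here. The members, the lists and the grouping were chosen with earlier results of these data known, and Psme3ip1 was set apart from the activators after the gene table was read. Shares have 95% Wilson intervals, counting error only, and the main shares of 0 are given with the limit that 3 counts would set. Peaks of 1 library allow no test between conditions, and none was run. Alternatives were other distances, stricter heights, other overlaps, starts only, and leaving out input intervals, chromosome 15 or part of the members. The scoring was tested on simulated data and run with pandas 2.3.3 and numpy 2.4.6 under Python 3.11.15, with scipy 1.17.1 for the intervals and matplotlib 3.10.9 for the plots.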

Additional observations from a re-analysis of the deposited data

How the results depend on the processing

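Of 51 alternative values, 39 were within 1.5 times the value reported and 12 were beyond it. Fewer intervals follow from the construction of the stricter heights, and more genes from that of the wider distances. Restricted to heights of 16, the median, or more, 1243 protein-coding genes (5.68%) and 7 proteasome genes (13.7%) had an interval. Among the 7 were 1 core subunit, 3 regulatory particle subunits and 3 assembly chaperones. With heights of at least 19, the counts were 674 (3.08%), 5 (9.80%), 0, 2 and 3. At 500 bp, 10 proteasome genes (19.6%) had an interval, against 9.04% of all protein-coding genes, and 1 core subunit was left, without Psmb3. At 5 kb, 13 proteasome genes (25.5%) had one, against 14.7%. At 10 kb, 14 (27.5%) had one, against 3864 protein-coding genes (17.7%). At 5 kb and at 10 kb the activators and inhibitor had 1 gene, Psmf1. The share of proteasome genes was 1.55 (10 kb) to 3.18 (heights of at least 19) times that of all protein-coding genes, and 2.01 times as reported. Under all distances and heights tried, 0 immunoproteasome and thymoproteasome genes had an interval. The list without Psme3ip1 was chosen after seeing the data and left 11 of 46 genes. No paired analysis was possible because the ChIP and the input are 1 library each, and no replicate could be left out.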

Other observations

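The proteasome genes are scattered over the genome, but those with an interval lay on chromosomes 1, 2, 5, 11 and 18 only. On chromosomes 1 and 18, 1 of 1 and 1 of 2 members had an interval, beside 11.9% and 9.78% of all protein-coding genes. All 3 members on chromosome 5 (Psmc2, Psmd9 and Psmg3) had an interval, beside 12.3% of all protein-coding genes there. The counts were 3 of 6 on chromosome 2 (10.9% of all), 3 of 10 on chromosome 11 (10.8%), 0 of 6 on chromosome 14 (10.2%) and 0 of 4 on chromosome 7 (7.19%), and with so few members per chromosome no contrast between chromosomes is drawn. No member lies on chromosome 15. In gene families of other large complexes scored in the same way, 29 of 78 mitochondrial ribosomal protein genes named Mrpl or Mrps (37.2%, 95% Wilson interval 27.3 to 48.3%) and 12 of 40 Nduf genes of the NADH dehydrogenase complex (30.0%, 18.1 to 45.4%) had an interval. Over all protein-coding genes the share was 10.8%. The Wilson intervals of both overlap that of the proteasome genes, and the difference was not tested.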
